A study of Mus musculus with 12 samples.

Results

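The Ndrg family is described here in the mouse left ventricle, as the 4 genes Ndrg1, Ndrg2, Ndrg3 and Ndrg4 that the raw count table of 78334 Ensembl genes holds under ENSMUSG00000005125, ENSMUSG00000004558, ENSMUSG00000027634 and ENSMUSG00000036564. They were chosen by family name, and all 4 were among the 16981 genes with enough counts to be tested. The family was taken up because Ndrg4 stood out with ITF2357 in these same libraries, so its values in the 2 comparisons that involve ITF2357 are given as a description, without a p-value. Ndrg1, Ndrg2 and Ndrg3 were added for their names and keep theirs.

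The libraries were made from poly(A) RNA and fall into 3 groups of 4 mice, 12 in all, each mouse giving 1 library. UNX/DOCA ITF2357 mice had UNX/DOCA surgery (removal of a kidney together with deoxycorticosterone acetate, a mineralocorticoid), a treatment used to bring about diastolic dysfunction, and from 4 weeks later ate chow with ITF2357 for 4 weeks. The titles of all 4 drug samples and the treatment protocol name ITF2357, while the treatment field ends in a different number for each of the 4, and the titles were used. ITF2357, also called givinostat, inhibits histone deacetylases (HDACs), the enzymes that remove acetyl groups from histones and other proteins. UNX/DOCA vehicle mice had the same surgery and ate normal chow, and Sham vehicle mice had a sham operation and normal chow. No sham-operated mice received ITF2357, so its effect without UNX/DOCA was not measured, and the labels state no strain, sex or age. The comparisons are given in the order UNX/DOCA ITF2357 against UNX/DOCA vehicle, UNX/DOCA vehicle against Sham vehicle, and UNX/DOCA ITF2357 against Sham vehicle.

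NDRG proteins, named after the N-myc downstream regulated gene, share an alpha/beta hydrolase fold that has lost its catalytic residues, and act in stress responses, differentiation and membrane traffic. NDRG1 is induced by hypoxia, is phosphorylated by the kinase SGK1, and is needed by Schwann cells to keep up myelin. NDRG2 is abundant in heart, skeletal muscle and astrocytes, NDRG3 binds lactate and is destroyed through the oxygen sensor EGLN1 in human cells, and NDRG4 is found mainly in brain and heart. In zebrafish, loss of ndrg4 reduces the proliferation of heart muscle cells.

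Because Ndrg4 is the member that differs most between the groups, the DNA just before its outermost annotated starts is shown for reference. RefSeq lists 4 starts for it on the plus strand of chromosome 8 (GRCm38.p6), and a count per gene cannot tell which of them was used in these hearts. The first sequence ends just before the most upstream start (chr8:95676724-95676973), and the second lies before the most downstream one (chr8:95702806-95703036), trimmed where an annotated untranslated exon begins. Capitals mark CG pairs, the sites where mammalian DNA can be methylated.
Ndrg4 upstream start: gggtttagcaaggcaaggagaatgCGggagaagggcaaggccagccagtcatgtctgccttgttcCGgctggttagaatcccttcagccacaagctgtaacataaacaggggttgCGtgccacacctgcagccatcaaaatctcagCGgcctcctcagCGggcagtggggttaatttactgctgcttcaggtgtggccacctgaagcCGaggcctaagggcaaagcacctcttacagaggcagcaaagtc
Ndrg4 downstream start: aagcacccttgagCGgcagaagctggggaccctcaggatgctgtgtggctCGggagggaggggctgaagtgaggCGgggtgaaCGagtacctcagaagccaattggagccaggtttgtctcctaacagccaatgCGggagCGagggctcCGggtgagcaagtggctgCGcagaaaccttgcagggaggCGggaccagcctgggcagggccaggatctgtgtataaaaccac
The first window of 250 bases holds 6 CG pairs and the last 9, near the median of 6 over 32851 RefSeq promoter windows of the same length. The windows before the starts between them are richer, with 24 and 31 CG pairs, and 88.0% and 94.8% of all windows hold fewer. The E-box CACGTG, a sequence bound by Myc and Max, occurs 1 time before the second of the 4 starts, in a window not printed here, and before none of the other 3, and 6.0% of all windows have it on either strand. The core of the hypoxia response element, ACGTG, was counted 2 times in that same window, both of them inside the E-box read on its 2 strands, and in 16.6% of all windows. The 5 windows that RefSeq gives for Ndrg2 and Ndrg3 hold neither. These matches describe letters in a window and say nothing of binding, and DNA methylation was not measured here.

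The libraries held 23.4 to 34.9 M counts each. The 4 genes were well covered, with the lowest count in a library at 380 for Ndrg3, 631 for Ndrg1, 1217 for Ndrg4 and 31186 for Ndrg2, so that counting error alone was at most 5.1%, 4.0%, 2.9% and 0.57% of the value. Markers of heart muscle cells were all detected (10 of 10, from Myh6 to Ckm) and summed to between 50815 and 65728 CPM. CPM stands for counts per M counts of a library, after TMM scaling, which evens out differences in composition between libraries. UNX/DOCA vehicle replicates 3 and 4 stood apart in immune transcripts. The 8 tested of 10 neutrophil markers summed to 692 and 196 CPM in them, against 6.06 to 57.7 CPM in the other 10 libraries. Macrophage markers (10 of 10 tested) summed to 651 and 446 CPM there, against 205 to 359 CPM elsewhere.

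The 4 genes differed widely in level, and their order per length was the same in all 3 groups. Counts grow with transcript length, so levels between genes are given as CPM per kb of merged exons. Ndrg2 was the most abundant, with 365 ± 14.4 CPM per kb in UNX/DOCA ITF2357, 395 ± 18.2 CPM per kb in UNX/DOCA vehicle and 391 ± 27.2 CPM per kb in Sham vehicle (SD, n = 4 each). Ndrg4 came next, with 33.5 ± 4.78 CPM per kb in UNX/DOCA ITF2357, 12.9 ± 1.29 CPM per kb in UNX/DOCA vehicle and 12.4 ± 2.07 CPM per kb in Sham vehicle. Ndrg1 followed with 4.82 ± 0.606, 6.35 ± 2.24 and 4.56 ± 1.38 CPM per kb in the same 3 groups, and Ndrg3 was the lowest with 2.32 ± 0.276, 2.21 ± 0.198 and 1.97 ± 0.149. No neighbours in this order overlapped within any group. In UNX/DOCA vehicle, for example, the lowest Ndrg4 library had 11.7 CPM per kb and the highest Ndrg1 library 9.27.

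Per length, Ndrg2 made up most of the family's transcripts in all 3 groups. The share of Ndrg2 was 90.0% ± 1.1 in UNX/DOCA ITF2357, 94.8% ± 0.216 in UNX/DOCA vehicle and 95.4% ± 0.497 in the Sham vehicle group (SD, n = 4 each). That of Ndrg4 was 8.24% ± 0.993, 3.11% ± 0.45 and 3.01% ± 0.474 in the same groups, which restates its higher level with ITF2357. The ratio of Ndrg2 to Ndrg4 per kb lay between 9.16 and 12.2 in UNX/DOCA ITF2357, against 25.4 to 35.7 for UNX/DOCA vehicle and 26.2 to 39.0 for Sham vehicle.

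**Figure D1:**
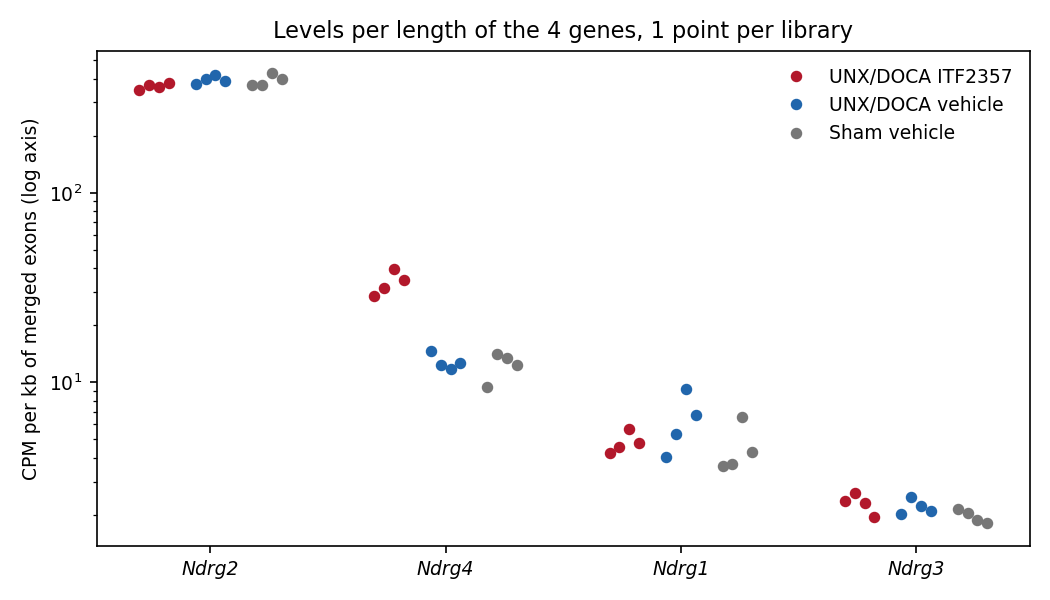
Level per length of the 4 genes in each library, as CPM per kb of merged exons on a log axis, with 1 point per library and colours for the 3 groups. Ndrg2 lies above Ndrg4, Ndrg4 above Ndrg1 and Ndrg1 above Ndrg3 in every group, and Ndrg4 is higher in the 4 UNX/DOCA ITF2357 libraries (28.4 to 39.6 CPM per kb) than in the other 8 (9.46 to 14.7).

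Ndrg4 was higher in every heart of the mice given ITF2357 than in any other. Its level was 139, 154, 194 and 169 CPM in UNX/DOCA ITF2357 replicates 1 to 4, against 71.9, 60.8, 57.1 and 62.4 CPM in UNX/DOCA vehicle replicates 1 to 4 and 46.3, 69.4, 65.8 and 60.4 CPM in Sham vehicle replicates 1 to 4. All 4 ITF2357 libraries stood above all 8 others, with a wide gap, while the 2 vehicle-fed groups overlapped. The group means were 164 ± 23.4 CPM in UNX/DOCA ITF2357, 63.0 ± 6.3 CPM in UNX/DOCA vehicle and 60.5 ± 10.1 CPM in Sham vehicle (SD, n = 4 each). Against UNX/DOCA vehicle the fitted ratio was 2.60 (log2 fold change 1.38 ± 0.13 SE), and against Sham vehicle it was 2.71 (1.44 ± 0.13 SE). These 2 comparisons share the ITF2357 libraries. Over 22 alternative settings, leaving out single libraries among them, the log2 values were 1.28 to 1.45 and 1.32 to 1.51. In left ventricle tissue, a change in the number of cells of a type and a change in their RNA content cannot be told apart.

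Between the vehicle-fed groups no difference in Ndrg4 was detected. UNX/DOCA vehicle and Sham vehicle differed by a log2 fold change of 0.06 ± 0.13 SE, with a 95% interval of -0.22 to 0.34 (adjusted p = 0.854, edgeR quasi-likelihood test). The interval thus runs from a ratio of 0.857 to one of 1.27. The UNX/DOCA vehicle libraries are shared with the first comparison.

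**Figure D2:**
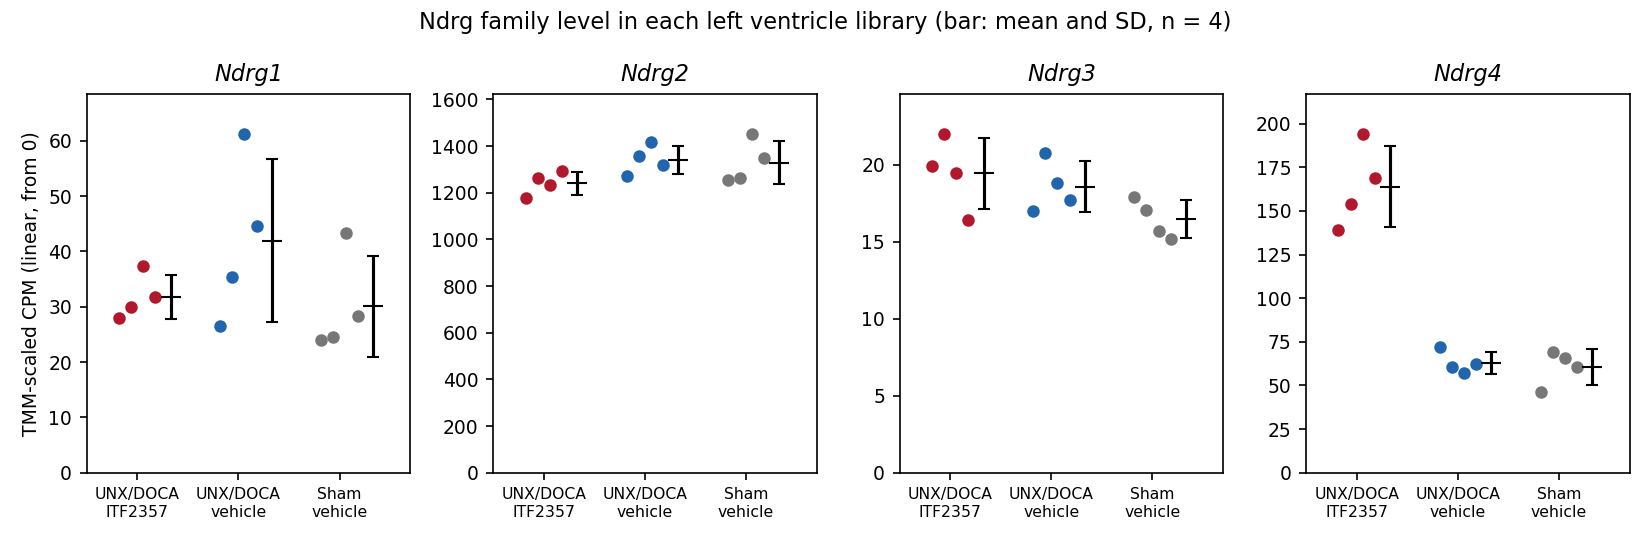
TMM-scaled CPM of each gene in each library (linear axes from 0), with libraries in the order of replicates 1 to 4 from left to right, and the mean and SD of each group beside its points. The 4 UNX/DOCA ITF2357 libraries lie at 139 to 194 CPM for Ndrg4 and all other libraries at 46.3 to 71.9, while the groups overlap for Ndrg1, Ndrg2 and Ndrg3.

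Ndrg1, Ndrg2 and Ndrg3 overlapped between the groups in all 3 comparisons, and none passed the test in any of them. A gene was called at an adjusted p under 0.05 in edgeR's quasi-likelihood test. Across all genes, 0.901% were called for UNX/DOCA ITF2357 against UNX/DOCA vehicle (0.459% higher, 0.442% lower) and 1.75% for UNX/DOCA ITF2357 against Sham vehicle (0.913% higher, 0.842% lower), so 0 of 3 is close to that background. For UNX/DOCA vehicle against Sham vehicle edgeR called 0%, while 15.9% of genes had an unadjusted p under 0.05, DESeq2 called 593 genes and limma-voom with sample weights 521. Groups did not overlap for 9.31% of all genes in the first comparison (4.95% higher, 4.36% lower), 9.39% in the second (5.03% higher, 4.36% lower) and 13.7% in the last (7.27% higher, 6.39% lower). Of the 4 members, 1 was without overlap in each comparison with ITF2357, which was Ndrg4, and 0 between the vehicle-fed groups. Since Ndrg4 brought the family in, nothing is read from that count.

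Ndrg2, the most abundant member, varied little between libraries. It had 1177, 1263, 1232 and 1292 CPM in UNX/DOCA ITF2357 replicates 1 to 4, against 1270, 1356, 1416 and 1318 CPM in UNX/DOCA vehicle and 1253, 1262, 1451 and 1349 CPM in Sham vehicle. The spread within a group was small, with a coefficient of variation of 3.95%, 4.61% and 6.95% in the 3 groups. The log2 fold change was -0.11 ± 0.06 SE for UNX/DOCA ITF2357 against UNX/DOCA vehicle (95% interval -0.24 to 0.02, adjusted p = 0.356, edgeR). It was -0.10 ± 0.06 against Sham vehicle (edgeR adjusted p = 0.403), and 0.01 ± 0.06 for UNX/DOCA vehicle against Sham vehicle (95% interval -0.12 to 0.15, adjusted p = 0.942). Between the vehicle-fed groups the interval covers ratios of 0.919 to 1.11.

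Ndrg1, the hypoxia- and stress-responsive member, varied most within the 2 vehicle-fed groups. It had 28.0, 30.0, 37.3 and 31.8 CPM in UNX/DOCA ITF2357 replicates 1 to 4, against 26.6, 35.4, 61.2 and 44.6 CPM in UNX/DOCA vehicle and 24, 24.5, 43.4 and 28.4 CPM in Sham vehicle. The highest value belonged to UNX/DOCA vehicle replicate 3, and the lowest of that group lay within the range of the Sham vehicle libraries. The coefficient of variation was 12.6% in UNX/DOCA ITF2357, 35.3% for UNX/DOCA vehicle and 30.2% for Sham vehicle. The log2 fold change was -0.40 ± 0.24 SE for UNX/DOCA ITF2357 against UNX/DOCA vehicle (95% interval -0.92 to 0.13, adjusted p = 0.401, edgeR). It was 0.48 ± 0.24 for UNX/DOCA vehicle against Sham vehicle (95% interval -0.05 to 1.01, edgeR adjusted p = 0.357), and 0.08 ± 0.24 for UNX/DOCA ITF2357 against Sham vehicle (adjusted p = 0.891).

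The 2 UNX/DOCA vehicle hearts with the most Ndrg1 were those with the most neutrophil and macrophage transcripts. Without those libraries, replicates 3 and 4, the log2 fold change was 0.03 ± 0.23 SE for UNX/DOCA ITF2357 against UNX/DOCA vehicle and 0.04 ± 0.23 for UNX/DOCA vehicle against Sham vehicle. Sham vehicle replicate 3, the highest of its group for Ndrg1 at 43.4 CPM, had a neutrophil marker sum of 21.2 CPM, the lowest of its group. The part of immune cells in the Ndrg1 values was not tested. Ndrg1 overlaps 2 genes on the opposite strand, Gm17035 with 0 counts and Gm2895 with 4 counts over all libraries.

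Ndrg3, the lactate-binding member, was the lowest of the 4 per length. It had 19.9, 22, 19.5 and 16.4 CPM in UNX/DOCA ITF2357 replicates 1 to 4, against 17, 20.8, 18.8 and 17.7 CPM in UNX/DOCA vehicle and 17.9, 17.1, 15.7 and 15.2 CPM in Sham vehicle. All 3 groups overlapped. The log2 fold change was 0.07 ± 0.10 SE for UNX/DOCA ITF2357 against UNX/DOCA vehicle (adjusted p = 0.777, edgeR) and 0.17 ± 0.10 for UNX/DOCA vehicle against Sham vehicle (adjusted p = 0.443). For UNX/DOCA ITF2357 against Sham vehicle it was 0.24 ± 0.10, with an unadjusted p = 0.039 and an adjusted p = 0.223 in the edgeR fit. An unadjusted p under 0.05 was found for 20.1% of all genes in that comparison.

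**Figure D3:**
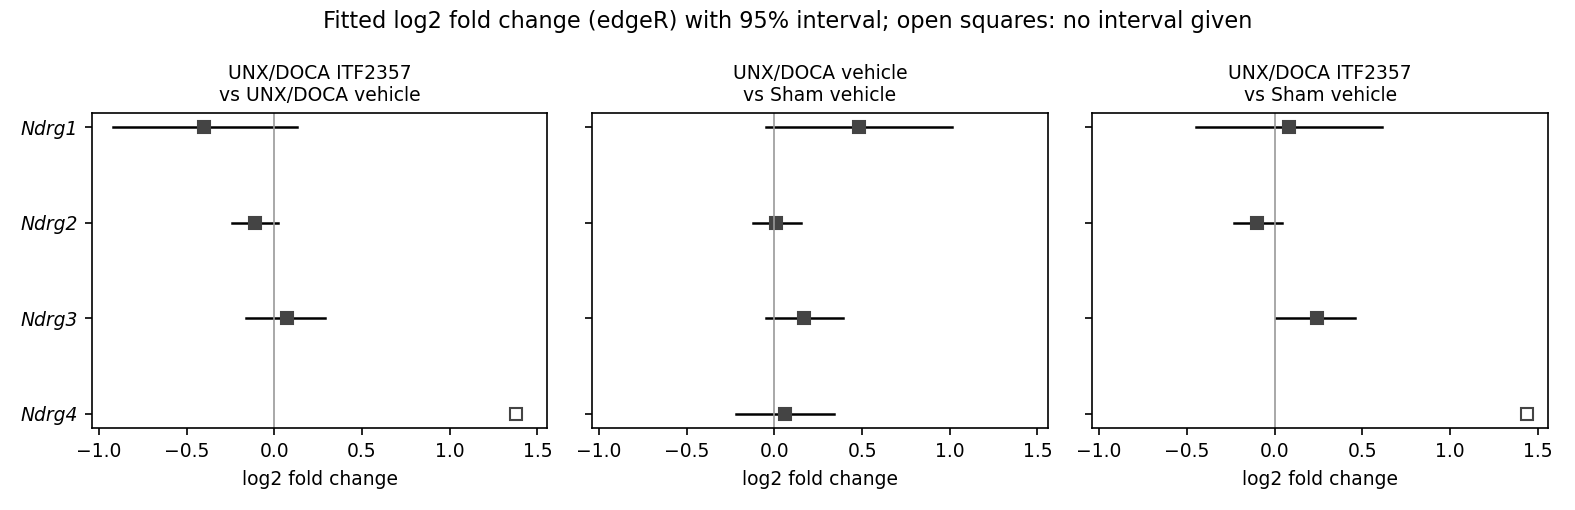
Fitted log2 fold change of each gene in the 3 comparisons (squares), with its 95% interval as a line, and positive values for higher in the first-named group. The intervals of Ndrg1 and Ndrg2 include 0 in all 3 panels. That of Ndrg3 excludes 0 for UNX/DOCA ITF2357 against Sham vehicle (0.01 to 0.46, not adjusted for the number of genes). Ndrg4 stands at 1.38 and 1.44 in the comparisons with ITF2357. It is drawn open and without an interval there because these values led to its choice.

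None of the tested genes next to Ndrg4 passed in any comparison. The 3 tested genes on either side of it on chromosome 8, in the order of the GRCm38 annotation, were Cfap20, Csnk2a2 and Gins3 before it and Setd6, Cnot1 and the unnamed gene Gm31659 after it. Setd6, a lysine methyltransferase gene that lies 0.8 kb away, had 11.6 ± 1.01 CPM in UNX/DOCA ITF2357 and 12.2 ± 0.564 CPM in UNX/DOCA vehicle (SD, n = 4 each; log2 fold change -0.07, 95% interval -0.26 to 0.13, edgeR adjusted p = 0.726). Cnot1, the scaffold of the complex that removes poly(A) tails, is 4.3 kb away and had 92.4 ± 4.52 CPM in UNX/DOCA ITF2357 and 89.3 ± 20.8 CPM in UNX/DOCA vehicle (log2 fold change 0.05, 95% interval -0.25 to 0.34, edgeR adjusted p = 0.883). Gins3, a subunit of the replication helicase, is 31.9 kb away on the other side and had a log2 fold change of 0.29 (95% interval -0.22 to 0.80, edgeR adjusted p = 0.537). The upper ends of the 6 intervals reached at most 0.80. Ndrg4, at 1.38, was taken up for its change in these same libraries, so nothing is read from its larger value. In UNX/DOCA ITF2357 against Sham vehicle the same 6 genes had log2 fold changes of -0.24 to 0.18, and 0 of 6 passed. Csnk2a2 and Cnot1 were lower there without overlap between the groups, as were 6.39% of all genes. Cnot1 was also lower without overlap in UNX/DOCA vehicle (89.3 ± 20.8 CPM) than in Sham vehicle (109 ± 2.92 CPM). Over all genes, 4.36% were lower without overlap in that comparison.

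**Figure D4:**
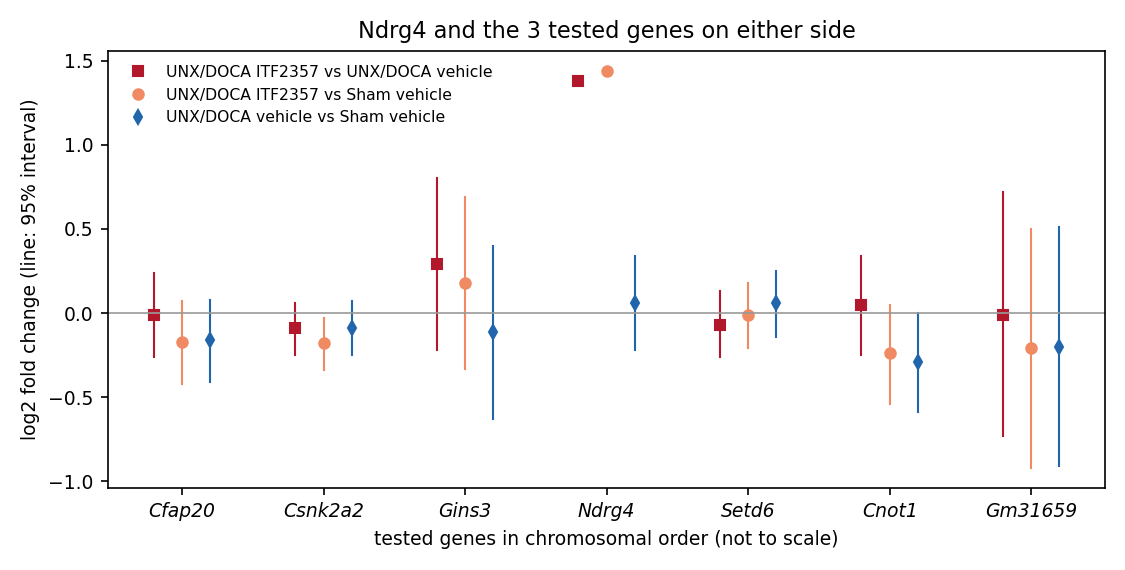
Log2 fold change of Ndrg4 and the 3 tested genes on either side, in chromosomal order and not to scale, in the 3 comparisons, with 95% intervals as lines (none for Ndrg4 in the comparisons with ITF2357). The 6 neighbours lie between -0.29 and 0.29 in all 3 comparisons. Ndrg4 stands at 1.38 and 1.44 with ITF2357, the values that led to its choice.

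The nearest tested genes of the other members did not pass either. St3gal1, a sialyltransferase gene next to Ndrg1, had 47.8 ± 10.6 CPM in UNX/DOCA ITF2357, 72.4 ± 28.0 CPM in UNX/DOCA vehicle and 43.6 ± 3.83 CPM in Sham vehicle (SD, n = 4 each; edgeR adjusted p = 0.206 and 0.186 for the first 2 comparisons). Ccn4 on its other side, Slc39a2 and Arhgef40 beside Ndrg2, and Rab5if and Dsn1 beside Ndrg3 had adjusted p-values of 0.127 to 0.919 for UNX/DOCA ITF2357 against UNX/DOCA vehicle. Their smallest in the other comparisons was that of Slc39a2, a gene of low level, for UNX/DOCA ITF2357 against Sham vehicle (0.453 ± 0.166 and 0.132 ± 0.0823 CPM, log2 fold change 1.66, edgeR adjusted p = 0.0832). Arhgef40 was higher without overlap in UNX/DOCA vehicle than in Sham vehicle, as were 5.03% of all genes.

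Genes similar to Ndrg4 were sought over the 12 libraries, which include the difference with ITF2357 that it was chosen for. Among 11995 named genes with at least 1 CPM on average, the 4 whose log2 CPM correlated most with that of Ndrg4 were Golm1, which encodes a Golgi membrane protein (Pearson r = 0.957), the folate-metabolism gene Ggh (0.950), Insig2, whose product holds the sterol sensor complex in the endoplasmic reticulum (0.948), and the palmitoyltransferase gene Zdhhc2 (0.941). Golm1 had 12.2 ± 0.768 CPM in UNX/DOCA ITF2357, 8.08 ± 0.746 CPM in UNX/DOCA vehicle and 7.89 ± 0.53 CPM in Sham vehicle (SD, n = 4 each). Zdhhc2 had 14.6 ± 0.955, 8.03 ± 0.38 and 6.64 ± 0.858 CPM in the same groups. The most opposite were Echdc3 (-0.963) and Palmd (-0.932), with Palmd at 54.6 ± 4.04 CPM in UNX/DOCA ITF2357, 79.0 ± 5.76 CPM in UNX/DOCA vehicle and 73.3 ± 6.79 CPM in Sham vehicle. The groups themselves contribute to these values, and after subtracting the group means the 4 had r = 0.466, 0.482, 0.755 and 0.280 with Ndrg4. Genes picked this way share or mirror its group difference by selection, so nothing is read from their levels by group.

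The same measure was taken for the other members. For Ndrg1 they were Hip1r, Capns1, Jade2 and Tns2 (r = 0.941, 0.924, 0.924 and 0.921), of which Hip1r links clathrin to actin and Capns1 is the small calpain subunit. For Ndrg2 they were Acadl, Aven, Dnajb12 and Hcfc1r1 (0.898, 0.880, 0.861 and 0.860). Acadl, the long-chain acyl-CoA dehydrogenase of fatty acid oxidation, had 1009 ± 71.6 CPM in UNX/DOCA ITF2357, 1158 ± 42.3 CPM in UNX/DOCA vehicle and 1158 ± 79.7 CPM in Sham vehicle (SD, n = 4 each). For Ndrg3 they were Zfp7, Alg2, Entpd7 and Rasl12 (0.901, 0.898, 0.879 and 0.878). Within the family the closest pair was Ndrg1 and Ndrg2, at r = 0.669 over the 12 libraries and 0.799 after subtracting the group means, while Ndrg4 and Ndrg2 stood at -0.537 and 0.159. All these are descriptions over 12 libraries that share their groups, and the 4 genes named for a member depend on the measure. With Spearman's rho, 1, 1, 2 and 1 of the 4 were again among the most alike for Ndrg1, Ndrg2, Ndrg3 and Ndrg4, and after subtracting group means 2, 0, 0 and 0 were.

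The genes of the Myc network and of the SGK and mTORC2 kinases, after which the family or its regulation is known, gave no calls. Mycn, which encodes N-myc, was low at 0.465 ± 0.201 CPM in UNX/DOCA ITF2357, 0.598 ± 0.508 CPM in UNX/DOCA vehicle and 0.848 ± 0.517 CPM in Sham vehicle (SD, n = 4 each). Of 11 tested genes of the Myc network, 0 passed in any comparison, with a median log2 fold change of -0.19 for UNX/DOCA ITF2357 against UNX/DOCA vehicle, where the median of all genes was 0.0. The smallest p there was that of Mlxipl, which encodes the carbohydrate-responsive factor ChREBP (25.9 ± 2.85 CPM in UNX/DOCA ITF2357, 36.7 ± 4.45 CPM in UNX/DOCA vehicle, edgeR adjusted p = 0.0588). Of 17 SGK and mTORC2 genes 0 passed, with a median of 0.04. Sgk1, whose kinase acts on NDRG1 and NDRG2, had 140 ± 109 CPM in UNX/DOCA ITF2357, 212 ± 82.6 CPM in UNX/DOCA vehicle and 186 ± 15.5 CPM in Sham vehicle (edgeR adjusted p = 0.556 and 0.886 for the first 2 comparisons). Rictor, a subunit of mTORC2, had a log2 fold change of 0.30 for UNX/DOCA ITF2357 against UNX/DOCA vehicle (edgeR adjusted p = 0.275).

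Among 23 hypoxia genes, 0 were higher and 1 was lower in UNX/DOCA ITF2357 than in UNX/DOCA vehicle, with a median log2 fold change of -0.09. Over all genes, 0.459% were called higher and 0.442% lower. The gene that fell was Ldha, which encodes the lactate dehydrogenase subunit that makes lactate, at 407 ± 26.3 CPM in UNX/DOCA ITF2357 and 498 ± 8.26 CPM in UNX/DOCA vehicle (SD, n = 4 each; log2 fold change -0.29 ± 0.06 SE, edgeR adjusted p = 0.0422). This call was lost in 16 of 22 alternatives, 11 of them with 1 library left out (adjusted p up to 0.238). Hif1a, the oxygen-regulated subunit of the hypoxia factor, had 70.3 ± 8.0 CPM in UNX/DOCA ITF2357, 86.9 ± 18 CPM in UNX/DOCA vehicle and 60.7 ± 9.37 CPM in Sham vehicle, with edgeR adjusted p = 0.278 and 0.136 for the first 2 comparisons. Egln1, the oxygen sensor that marks NDRG3 for destruction in human cells, had 543 ± 36.1, 485 ± 25.1 and 565 ± 11 CPM in the same groups (edgeR adjusted p = 0.178 and 0.135). Of the 23, Egln1 (higher) and Ldha (lower) were without overlap in the first comparison. In the second, Hif1a (higher) and Egln1 (lower) were. Over all genes, 9.31% and 9.39% were without overlap in these comparisons.

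Of 14 tested genes for proteins known to bind or work with NDRG proteins, Ldha was again the 1 that was lower in UNX/DOCA ITF2357 than in UNX/DOCA vehicle, and 0 were higher (median log2 fold change 0.11). The shares over all genes were 0.442% lower and 0.459% higher.

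Of 18 tested corticoid receptors and targets, a list taken because NDRG2 responds to glucocorticoids and DOCA acts on the mineralocorticoid receptor, 0 passed in any comparison. Their median log2 fold change was 0.40 for UNX/DOCA vehicle against Sham vehicle, where the median of all genes was 0.01, and -0.08 for UNX/DOCA ITF2357 against UNX/DOCA vehicle. Angptl4, an inhibitor of lipoprotein lipase, was higher in all 4 UNX/DOCA vehicle libraries than in any Sham vehicle library (log2 fold change 2.24 ± 0.59 SE, edgeR adjusted p = 0.133). It was the 1 gene of the 18 without overlap there. Over all genes, 5.03% were higher without overlap in that comparison, so 1 of 18 is close to that background. The 11 genes of the zinc-dependent HDACs, the drug's targets, had log2 fold changes of -0.39 to 0.27 for UNX/DOCA ITF2357 against UNX/DOCA vehicle, and 0 passed.

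Of 15 heart transcription factor genes, 1 was higher in UNX/DOCA ITF2357 than in UNX/DOCA vehicle and 0 were lower, with a median log2 fold change of -0.01. The shares over all genes were 0.459% higher and 0.442% lower. The gene that rose was Hopx, a homeodomain protein without DNA binding that recruits HDACs in the heart, at 199 ± 21.1 CPM in UNX/DOCA ITF2357, 116 ± 13.9 CPM in UNX/DOCA vehicle and 124 ± 15.4 CPM in Sham vehicle (SD, n = 4 each). Its log2 fold change was 0.78 ± 0.11 SE against UNX/DOCA vehicle (edgeR adjusted p = 0.011) and 0.69 ± 0.11 against Sham vehicle (adjusted p = 0.0162). The first call was lost in 4 of 22 alternatives, which were the fits without UNX/DOCA ITF2357 replicate 1 (edgeR adjusted p = 0.0519), without UNX/DOCA vehicle replicate 4 (0.056), without UNX/DOCA vehicle replicates 3 and 4 (0.0825) and with only the 2 groups compared (0.0543). The second was lost in 3, without Sham vehicle replicates 1, 2 or 4 in turn (edgeR adjusted p = 0.0608, 0.0753 and 0.063). Nkx2-5, an early regulator of heart muscle genes, did not pass and had 51.1 ± 3.99 CPM in UNX/DOCA vehicle and 64.9 ± 5.17 CPM in Sham vehicle (edgeR adjusted p = 0.148).

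**Figure D5:**
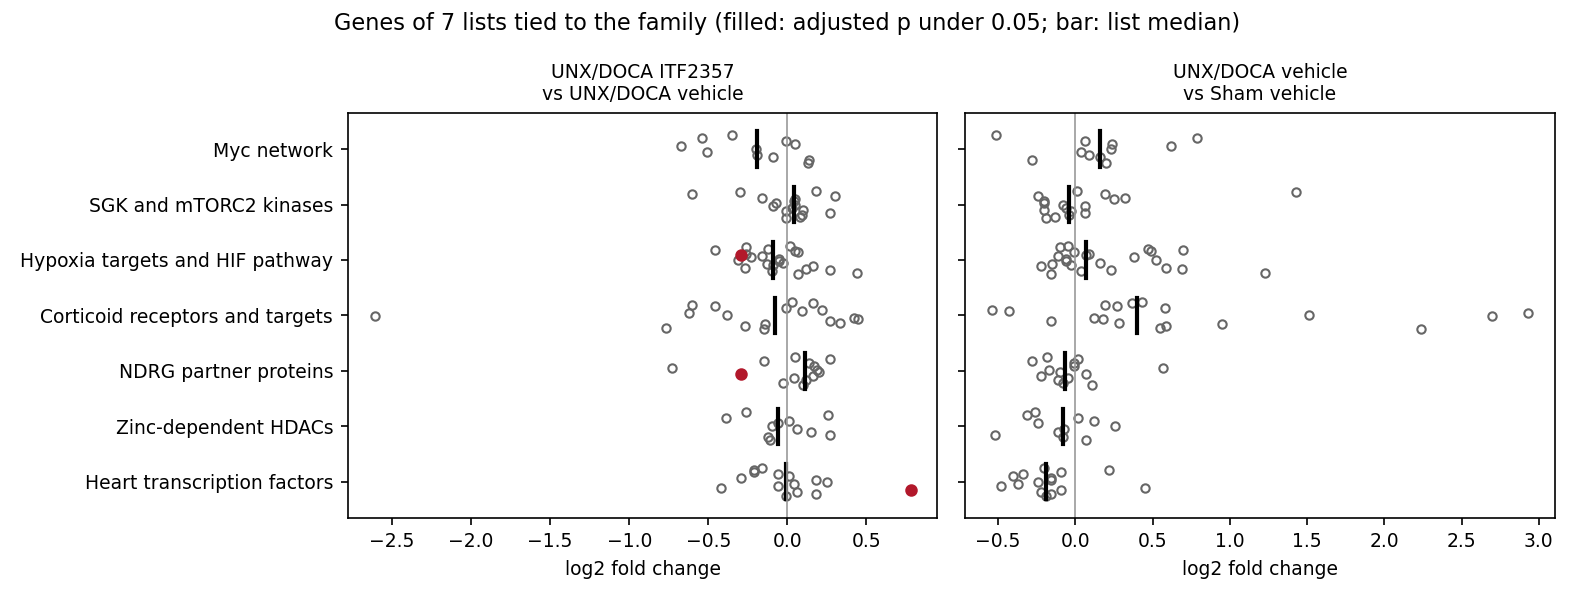
Log2 fold change of each tested gene of the 7 lists in UNX/DOCA ITF2357 against UNX/DOCA vehicle (left) and UNX/DOCA vehicle against Sham vehicle (right), with filled points for genes that passed and a bar at the median of each list. Ldha, drawn in the 2 lists that hold it, and Hopx are the filled points on the left, and there is none on the right.

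Nerve cells also express Ndrg4, and their markers were looked at beside it. The 4 tested of 12 neuron markers (Uchl1, Prph, Stmn2 and Dbh) summed to 17.2 to 21.1 CPM in UNX/DOCA ITF2357, 11.6 to 18.6 CPM in UNX/DOCA vehicle and 14 to 15.9 CPM in Sham vehicle, so that UNX/DOCA ITF2357 overlapped UNX/DOCA vehicle and not Sham vehicle. Uchl1 had 5.15 ± 0.377 CPM in UNX/DOCA ITF2357 and 3.82 ± 0.542 CPM in UNX/DOCA vehicle (SD, n = 4 each; log2 fold change 0.43, edgeR adjusted p = 0.243). The 4 neuron markers did not share a direction. Their log2 fold changes ran from -0.14 to 0.43 in that comparison, and from -0.57 to 0.79 for UNX/DOCA ITF2357 against Sham vehicle. Th and Chat, which define noradrenergic and cholinergic neurons, were at 0 in all 12 libraries. The 8 tested of 10 Schwann cell markers summed to 36.3 to 48.9 CPM in UNX/DOCA ITF2357, 27.2 to 40.8 CPM in UNX/DOCA vehicle and 30.3 to 39.2 CPM in Sham vehicle, and 0 of the 12 tested genes of both lists passed. With ITF2357, neuron markers had median log2 fold changes of 0.35 against UNX/DOCA vehicle and 0.5 against Sham vehicle. Schwann cell markers had 0.33 and 0.49, and all genes 0.0 and 0.01. Against Sham vehicle, 1 of 4 neuron and 2 of 8 Schwann cell markers were higher without overlap, and 0 lower. Over all genes these shares were 7.27% and 6.39%. Heart muscle markers summed to 54513 to 59099 CPM in UNX/DOCA ITF2357, 50815 to 55554 CPM in UNX/DOCA vehicle and 53720 to 65728 CPM in Sham vehicle. The part of nerve and Schwann cells in the Ndrg4 values was not tested.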

How the data were processed

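The authors deposited a table of raw counts per Ensembl gene for the 12 libraries, without normalization. Per the submitters' processing notes, FastQC 0.11.9, STAR 2.7.10b and the mm39 build were used, and neither the counting tool nor its strand setting is named there. Symbols, lengths and neighbours came from a GRCm38 annotation by Ensembl identifier, and promoter windows from RefSeq (GRCm38.p6), which matched 3 of 4 members. Tests were run in R 4.3.3 with edgeR 4.0.16, using filterByExpr (10 counts), TMM scaling and a robust quasi-likelihood fit of all 12 libraries with a term per group. P-values were adjusted by Benjamini-Hochberg over 16981 genes at a threshold of 0.05, and each SE is the absolute log2 fold change over the square root of F. The script was tested on simulated data. Similarity used Pearson's r of log2 CPM with a prior count of 2.

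The members and lists were chosen with earlier results of these data known. The genes named are the members, the 4 most similar to each and the 2 most opposite to Ndrg4, the nearest tested genes, Mycn, Sgk1, Hif1a, and those with the smallest p of each list, of which the text gives some. Alternatives were other scalings, other filters, DESeq2 1.42.0, limma-voom 3.58.1 with sample weights (not run without them), a 2-group fit, a replicate block, each library left out, and UNX/DOCA vehicle replicates 3 and 4 left out. For Ldha and Hopx they were added after seeing the data. Some items are not reported here.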

Additional observations from a re-analysis of the deposited data

How the results depend on the processing

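Ndrg4 kept its direction in both comparisons with ITF2357 in all 22 alternatives, and Ndrg1, Ndrg2 and Ndrg3 passed in none. All 22 reuse the libraries in which Ndrg4 was chosen, so its steady direction is no independent support. The sign of small differences moved, and the cause was not tested. For UNX/DOCA ITF2357 against UNX/DOCA vehicle, Ndrg1 had a log2 fold change of 0.03 without UNX/DOCA vehicle replicates 3 and 4, and -0.56 to -0.17 with 1 library left out. For UNX/DOCA vehicle against Sham vehicle, Ndrg2 had -0.01 without a filter, -0.02 without UNX/DOCA vehicle replicates 3 and 4, and -0.02 to 0.04 with 1 library left out, where Ndrg4 had -0.06 to 0.13. For UNX/DOCA ITF2357 against Sham vehicle, Ndrg1 had -0.02 to 0.30 with 1 library left out.

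Counts of called genes depended on the setting. For UNX/DOCA ITF2357 against UNX/DOCA vehicle the 153 calls became 352 without a filter, 5 with only the 2 groups compared, 928 with DESeq2, 251 with limma-voom with sample weights, 12 without UNX/DOCA vehicle replicates 3 and 4, and 14 to 243 with 1 library left out. For UNX/DOCA vehicle against Sham vehicle the 0 calls became 7 with upper-quartile scaling, 210 without a filter, 593 with DESeq2, 521 with weighted limma-voom, 1 without UNX/DOCA vehicle replicates 3 and 4, and 0 to 380 with 1 library left out. For UNX/DOCA ITF2357 against Sham vehicle the 298 calls became 475 with only the 2 groups compared, 1180 with DESeq2, 1506 with weighted limma-voom, 481 without UNX/DOCA vehicle replicates 3 and 4, and 17 to 616 with 1 library left out. Upper-quartile scaling gave 108 higher and 65 lower in the first comparison (78 and 75 with TMM) and 214 and 89 in the last (155 and 143 with TMM), where library totals gave 172 and 98.

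Same-numbered libraries correlated at -0.19 to 0.25 over 12 pairs after subtracting group means. These values cannot show whether replicate numbers pair the animals. Ndrg1 had the same order of replicates in all 3 groups, lowest in replicate 1 and highest in replicate 3. With a replicate block the calls were 68, 31 and 192 in the 3 comparisons, and 0 of Ndrg1, Ndrg2 and Ndrg3 passed. For UNX/DOCA vehicle against Sham vehicle, Ndrg1 then had a log2 fold change of 0.46 ± 0.12 SE (edgeR adjusted p = 0.109). Without the block it was 0.48 ± 0.24 (0.357). Levels per kb of the longest transcript were higher than per kb of merged exons, with Ndrg4 at 52.9, 20.3 and 19.5 CPM per kb in UNX/DOCA ITF2357, UNX/DOCA vehicle and Sham vehicle, and the order of the genes was the same.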
